A study of Mus musculus with 18 samples.

Results

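Gene expression in TKO embryoid bodies (EBs) at day 16 was set against that in TKO EBs at day 4, over all 35512 probe sets of the array. The TKO embryonic stem cell (ESC) line has the genotype Dnmt1-/-, Dnmt3a-/-, Dnmt3b-/- and so lacks the maintenance DNA methyltransferase and both *de novo* enzymes. Its 2 arrays of day 16 and 2 arrays of day 4 are 4 of the 18 arrays of the series, chosen by genotype and day alone. EBs of wt and *Dnmt1*-/- cells served for comparison, each with 2 arrays at day 4 and 2 at day 16. The TKO ESCs of day 0, also on 2 arrays, are given as levels. All lines have the J1 (129Sv/Jae) background, all EBs were grown by the hanging drop method, and each genotype is named as 1 ESC line with no count of clones, so line and genotype cannot be told apart. The replicates are labelled biological and come from separate experiments according to the study's methods.

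EBs are aggregates of ESCs that differentiate without LIF. In the first days they pass through states like the epiblast and the primitive streak, where the germ layers arise. Later an outer layer of visceral endoderm, the absorptive and secretory epithelium of the yolk sac, makes proteins such as alpha-fetoprotein and apolipoproteins, while mesoderm gives cardiac muscle, blood and fibroblasts. DNA methylation is known to help keep trophoblast genes and many germ line genes silent in cells of the embryo proper.

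Values are log2 signals per probe set, so a difference of 1 is 2-fold. A probe set was called when its day 16 minus day 4 difference was at least 1 in size and its limma adjusted p (false discovery rate over all probe sets) was under 0.05. Arrays of TKO EBs at day 4 lay closest together of the 9 groups (median absolute difference between replicates 0.157), and those of TKO EBs at day 16 furthest apart (0.266, with 1264 probe sets at least 2-fold apart). With 2 arrays a group, most calls depend on the spread shared over all groups, so named genes are given with the 4 leave-one-out fits, each without 1 TKO EB array. Of the mutated genes, *Dnmt1* gave signals of 8.40 and 8.75 at day 4 and 8.40 and 8.43 at day 16 and *Dnmt3a* 7.15 and 7.13 at day 4 and 6.45 and 6.67 at day 16. Neither was called, with log2 changes of −0.16 and −0.58. *Dnmt3b* gave 8.88 and 8.58 at day 4 and 7.52 and 7.71 at day 16 and fell by 1.12 (change −1.12 ± 0.24 (SE), adjusted p = 0.0319 by limma), having been at 7.33 and 7.45 at day 0. Its change was not called in any of the 4 leave-one-out fits, where it was −1.27 to −0.97. No source used here says whether these probes lie within the deleted exons, so the signals do not test for the loss of the proteins.

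Between day 4 and day 16, 282 probe sets (0.794% of 35512) were called higher in TKO EBs and 219 (0.617%) lower. By gene, taking the probe set with the highest mean signal for each of 19938 genes, 218 (1.09%) were called higher and 148 (0.742%) lower. The rises were larger than the falls, with medians of 1.51 and 1.22 log2 units over the called genes, and 66 genes rose but 16 fell by at least 2 log2 units. Rises also kept their call more often when single arrays were left out. Of the 218 higher genes, 71 were called in all 4 leave-one-out fits, against 13 of the 148 lower genes. The number of genes called higher was 81 without day 4 replicate 1, 124 without day 4 replicate 2, 120 without day 16 replicate 1 and 129 without day 16 replicate 2, and of genes called lower 22, 54, 131 and 39 in the same order. EBs are mixtures, and in such samples fewer cells of a type and less RNA per cell cannot be told apart.

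**Figure D1:**
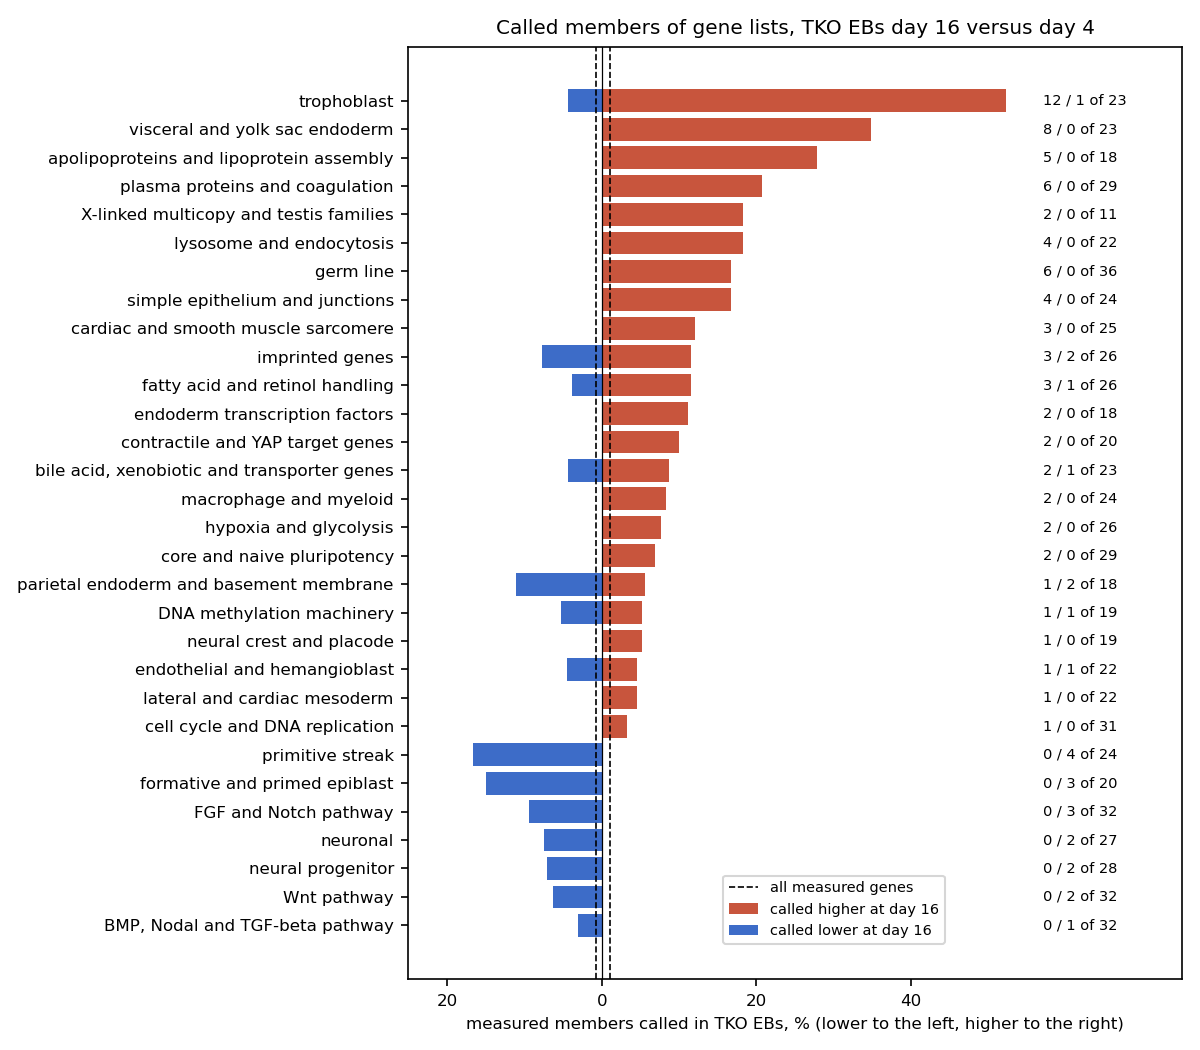
Share of the measured members of each gene list called higher (right) or lower (left) in TKO EBs at day 16 against day 4, in percent, with the counts of higher and lower members at the right and the shares over all measured genes as dashed lines. Trophoblast genes had 12 of 23 members called higher, visceral and yolk sac endoderm genes 8 of 23, and primitive streak genes 4 of 24 called lower. Only lists with a called member are drawn.

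About 1 in 3 genes of the visceral and yolk sac endoderm were called higher. Of 23 measured visceral endoderm genes, 8 were called higher and 0 lower, all 23 had a positive change, and the median log2 change was 1.14 against 0.03 over all genes. *Rbp4*, which carries retinol in plasma, had signals of 5.35 and 5.78 at day 4 and 10.76 and 9.40 at day 16, a change of 4.52 ± 0.37 (SE), adjusted p = 0.000189. *Afp*, the main plasma protein of the fetus, rose from 5.79 and 7.25 to 10.95 and 10.92 (log2 change 4.42 ± 0.35 (SE), adjusted p = 0.000139). Both genes lay higher on each day 16 array than on each day 4 array by over 3 log2 units, and each was called in all 4 leave-one-out fits (*Rbp4* 3.84 to 5.19, *Afp* 3.68 to 5.15). *Ttr*, the carrier of thyroxine and also a member of the plasma protein list, was at 6.68 and 7.44 at day 4 and 11.20 and 10.28 at day 16 (change 3.68, limma adjusted p = 0.01), and was not called without day 4 replicate 1 or day 16 replicate 1, with leave-one-out values of 3.23 to 4.14. *Cubn*, the receptor with which yolk sac endoderm takes up proteins, was at 5.91 and 6.93 at day 4 and 10.28 and 8.88 at day 16 (change 3.16, limma adjusted p = 0.0146), and was not called without day 4 replicate 1 or day 16 replicate 1, with leave-one-out values of 2.46 to 3.86. *Dab2*, an adaptor of the same endocytic route, rose by 2.36 and was not called without day 4 replicate 1, with leave-one-out values of 1.97 to 2.75. *Dpp4* and *Vil1*, proteins of the brush border, rose by 1.97 and 1.22. *Dpp4* (1.60 to 2.34 with single arrays left out) was not called without day 4 replicate 1, day 4 replicate 2 or day 16 replicate 1. *Vil1* (1.15 to 1.29 with single arrays left out) was not called without day 4 replicate 1. Without day 4 replicate 1, whose signals for *Afp* and *Cubn* were lower than those of replicate 2, 2 of the 23 members were called, against 7 without day 4 replicate 2, 5 without day 16 replicate 1 and 8 without day 16 replicate 2.

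Other visceral endoderm genes were not called. *Amn*, the partner of *Cubn* in the receptor, had signals of 6.12 and 6.24 at day 4 and 7.25 and 6.998 at day 16 (change 0.94, limma adjusted p = 0.0836). *S100g*, a calcium-binding protein, was at 4.85 and 5.92 at day 4 and 8.13 and 6.68 at day 16 (change 2.02, adjusted p = 0.0756), with replicate 1 of day 16 well above replicate 2. *Lrp2*, the largest endocytic receptor of this epithelium, was already at 8.81 and 9.08 at day 4 and 9.46 and 8.80 at day 16 and did not pass the test (change 0.19). Among 18 endoderm transcription factors, *Hnf4a*, which drives many genes of liver and yolk sac endoderm, rose from 5.897 and 5.86 to 7.49 and 6.83 (change 1.28 ± 0.26 (SE), adjusted p = 0.0252), and was not called without day 4 replicate 1, day 4 replicate 2 or day 16 replicate 1, with leave-one-out values of 0.95 to 1.61. *Nr2f2*, an orphan nuclear receptor, rose by 1.24 and was not called without day 4 replicate 2, with leave-one-out values of 1.04 to 1.44. *Gata4* (0.80), *Gata6* (0.01), *Foxa2* (0.62) and *Sox17* (0.31) were not called.

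Lipoprotein genes gave 5 called higher and 0 lower of 18 measured, with a median log2 change of 0.59. *Apoa1*, the main protein of high-density lipoprotein, was at 6.16 and 6.21 at day 4 and 10.68 and 9.95 at day 16 (change 4.13 ± 0.31 (SE), adjusted p = 8.64e-05). *Apob*, the backbone of chylomicrons and low-density lipoprotein, was at 5.76 and 6.42 at day 4 and 10.08 and 9.32 at day 16 (change 3.61 ± 0.40 (SE), adjusted p = 0.00109), and *Mttp*, which loads lipid onto it, at 5.58 and 5.54 at day 4 and 8.29 and 7.51 at day 16 (change 2.34 ± 0.27 (SE), adjusted p = 0.00122). For all of these, both day 16 arrays lay above both day 4 arrays, with replicate 1 the higher at day 16. *Apoa2* rose by 2.44, and *Apoa1*, *Apob*, *Mttp* and *Apoa2* were called in each of the 4 leave-one-out fits. *Apom*, a small apolipoprotein that binds sphingosine phosphate and is also in the visceral endoderm list, rose by 3.67 and was not called without day 4 replicate 1, with leave-one-out values of 3.07 to 4.27. *Apoe*, at 10.95 and 11.43 at day 4 and 11.54 and 11.09 at day 16, was among the strongest signals of the list at both days and was not called.

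Plasma proteins and clotting factors held a few large rises among many members that were not called. Of 29 measured, 6 were called higher and 0 lower (median 0.35). *Trf*, which encodes the iron carrier transferrin, rose from 6.19 and 6.45 to 10.44 and 10.34 (change 4.07 ± 0.19 (SE), adjusted p = 1.81e-06), called in each of the 4 leave-one-out fits, at 3.94 to 4.205. *Fgb*, a chain of fibrinogen, rose from 4.50 and 4.64 to 7.72 and 7.50 (change 3.04 ± 0.18 (SE), adjusted p = 1.07e-05), called in each of the 4 leave-one-out fits, at 2.93 to 3.15. *Cfi*, a protease of the complement system, rose by 1.66 and was called in each of the 4 leave-one-out fits, at 1.47 to 1.84. *F2*, which encodes prothrombin, and *Serpinf2*, the inhibitor of plasmin, rose by 1.45 and 1.58. *F2* (1.196 to 1.70 with single arrays left out) was not called without day 4 replicate 1, day 4 replicate 2 or day 16 replicate 1. *Serpinf2* (1.46 to 1.69 with single arrays left out) was not called in any leave-one-out fit. *Alb*, which encodes albumin, gave 3.95 and 3.91 at day 4 and 3.97 and 4.01 at day 16, a change of 0.06, and *Ahsg*, another major plasma protein of the fetus, gave 4.82 and 4.61 at day 4 and 5.07 and 5.23 at day 16, a change of 0.43. Neither of these was called, and the low signals of *Alb* were close to those at day 0 (4.05 and 3.95).

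**Figure D2:**
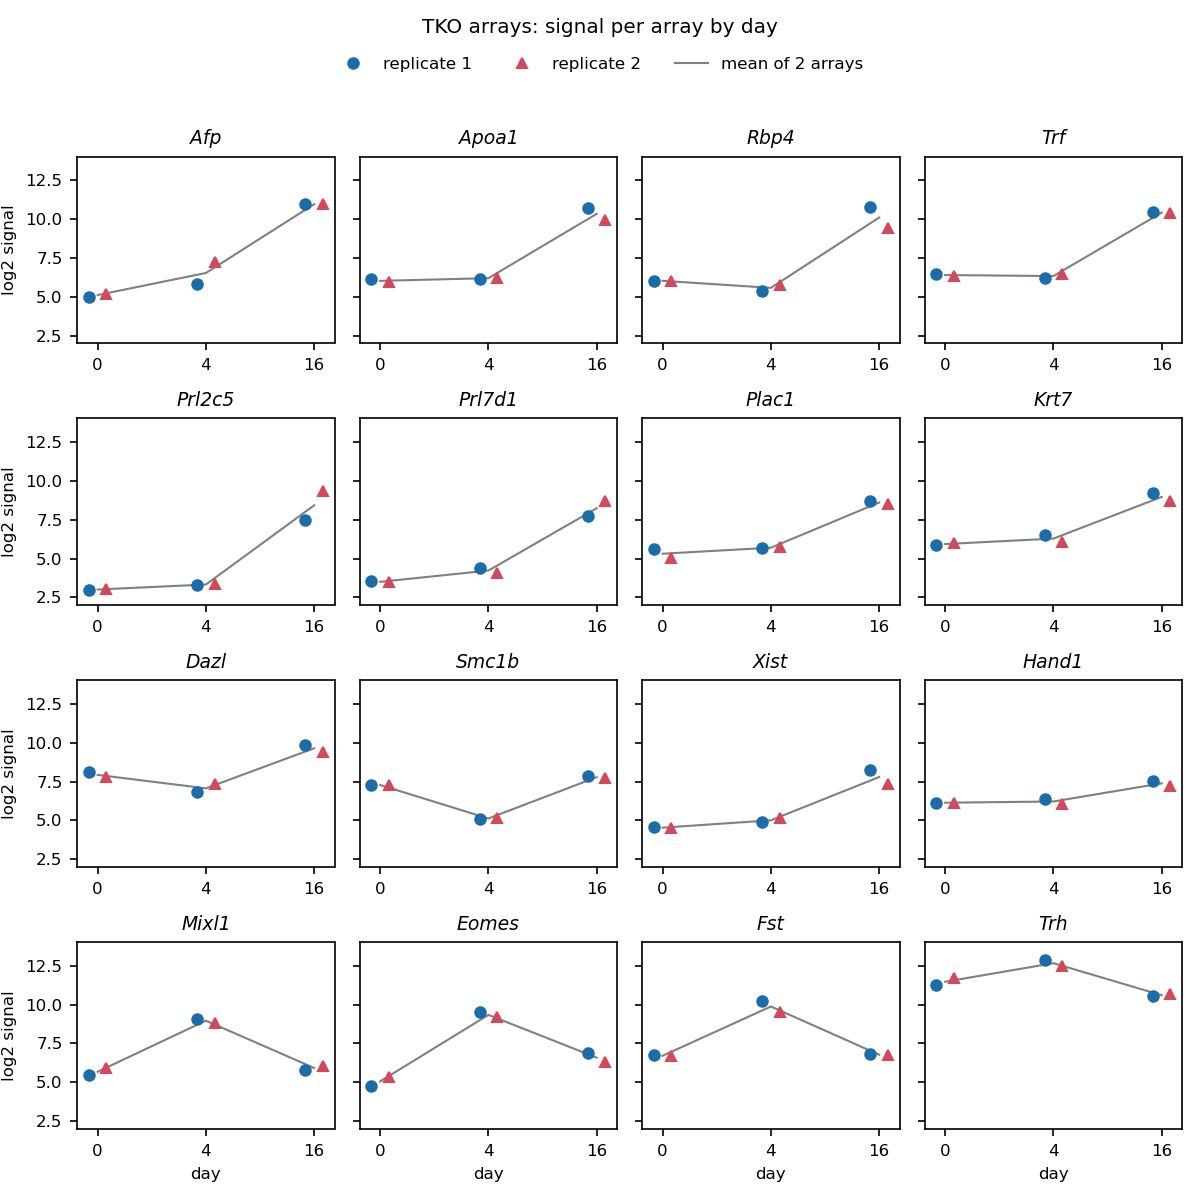
Log2 signal of 16 genes on each TKO array at day 0, 4 and 16, with replicate 1 as circles, replicate 2 as triangles and a grey line through the means of 2 arrays. Genes of endoderm and trophoblast are highest at day 16, *Mixl1*, *Eomes* and *Fst* are highest at day 4, and *Dazl* and *Smc1b* are lower at day 4 than at day 0 and day 16.

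Trophoblast genes had the largest share of members called higher among the 39 lists when all arrays were fitted. Of 23 measured, 12 were called higher and 1 lower, with a median log2 change of 1.34. In wt EBs 8 were called higher and 3 lower (median 0.48), and in *Dnmt1*-/- EBs 8 and 1 (median 1.02). Over all genes 6.11% were called higher in wt EBs, 3.64% in *Dnmt1*-/- EBs and 1.09% in TKO EBs. The TKO change minus the *Dnmt1*-/- change was called for 0 of the 23. In TKO EBs the trophoblast share was not the largest in any leave-one-out fit. Without day 4 replicate 1, day 4 replicate 2, day 16 replicate 1 and day 16 replicate 2, 2, 2, 4 and 4 trophoblast genes were called higher, against 4, 5, 5 and 5 of the 18 apolipoprotein genes. Transcription factors are given first. *Gata3*, which drives trophoblast identity, gave 6.45 and 6.62 at day 4 and 8.17 and 7.90 at day 16 (change 1.51 ± 0.26 (SE), adjusted p = 0.0111). *Tfap2c*, a partner in the same circuit, gave 6.72 and 7.77 at day 4 and 9.11 and 8.92 at day 16 (change 1.77 ± 0.33 (SE), adjusted p = 0.0152). *Hand1*, needed for giant cells, gave 6.39 and 6.04 at day 4 and 7.53 and 7.24 at day 16 (change 1.16 ± 0.26 (SE), adjusted p = 0.0382), and *Ascl2*, an imprinted factor of the ectoplacental cone, 5.83 and 5.75 at day 4 and 7.19 and 6.96 at day 16 (change 1.28 ± 0.24 (SE), adjusted p = 0.0163). In these 4 genes both day 16 arrays were above both day 4 arrays. A fit with 1 array left in a group has less precision, so a lost call does not show that the array left out carried the rise. *Gata3*, *Hand1* and *Ascl2* were not called in any leave-one-out fit, with values of 1.37 to 1.64, 0.99 to 1.34 and 1.17 to 1.40. *Tfap2c* (1.24 to 2.29 with single arrays left out) was not called without day 4 replicate 1, day 16 replicate 1 or day 16 replicate 2. *Cdx2* (−0.15) and *Elf5* (0.68), factors of trophoblast stem cells, were not called, and *Eomes*, which such stem cells share with the primitive streak, was the member that fell.

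Among structural and secreted trophoblast products, *Plac1*, an X-linked placental gene, rose from 5.66 and 5.73 to 8.71 and 8.48 (change 2.90 ± 0.47 (SE), adjusted p = 0.00859), and was not called without day 4 replicate 1, day 4 replicate 2 or day 16 replicate 2, with leave-one-out values of 2.79 to 3.01. *Krt7*, a keratin of trophoblast and other simple epithelia, rose from 6.48 and 6.08 to 9.21 and 8.70 (change 2.68 ± 0.25 (SE), adjusted p = 0.000391), called in each of the 4 leave-one-out fits, at 2.42 to 2.93. *Gjb2*, a gap junction protein of the placental barrier, rose by 2.67 and was not called without day 4 replicate 2, with leave-one-out values of 2.28 to 3.06. The X-linked homeobox genes *Rhox6* and *Rhox9* rose by 2.38 and 2.55. *Rhox6* (2.09 to 2.67 with single arrays left out) was not called without day 4 replicate 1, day 4 replicate 2 or day 16 replicate 1. *Rhox9* (2.24 to 2.85 with single arrays left out) was not called in any leave-one-out fit. *Gjb5*, another connexin, rose by 1.51, *Ctsj*, a placental cathepsin, by 2.43, and *Ets2*, a transcription factor, by 1.34. *Gjb5* (1.31 to 1.71 with single arrays left out) and *Ctsj* (2.19 to 2.67) were not called in any leave-one-out fit. *Ets2* (1.14 to 1.55 with single arrays left out) was not called without day 4 replicate 1, day 4 replicate 2 or day 16 replicate 1. *Tpbpa*, which marks the spongiotrophoblast, moved from 3.30 and 3.33 to 5.12 and 5.13, a change of 1.82 that did not pass the test (limma adjusted p = 0.0869). *Prl3d1*, one of the defining markers chosen for trophoblast, is unnamed here.

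Prolactin family genes, hormones made by trophoblast and decidua in rodents, were counted after the largest rises had been seen. Of 19 measured, 10 were called higher and 0 lower, and their median log2 change was 1.76. *Prl2c5*, which encodes a proliferin, had the largest rise of any gene, from 3.33 and 3.33 to 7.47 and 9.37 (change 5.09 ± 0.86 (SE), adjusted p = 0.00996), and was not called without day 4 replicate 1, day 4 replicate 2 or day 16 replicate 2, with leave-one-out values of 4.14 to 6.04. *Prl7d1*, the proliferin-related protein, was at 4.38 and 4.08 at day 4 and 7.76 and 8.70 at day 16 (change 4.00 ± 0.46 (SE), adjusted p = 0.00122), called in each of the 4 leave-one-out fits, at 3.54 to 4.47. *Prl2a1* rose by 3.54 and was not called without day 4 replicate 1, day 4 replicate 2 or day 16 replicate 2, with leave-one-out values of 3.11 to 3.98. *Prl7a1* rose by 3.20, *Prl7b1* by 2.95, *Prl4a1* by 2.85 and *Prl5a1* by 2.82, each called in all 4 leave-one-out fits. *Prl2c1* rose by 3.14 and was not called without day 4 replicate 1, day 4 replicate 2 or day 16 replicate 2, with leave-one-out values of 2.59 to 3.69. *Prl8a9* and *Prl2b1* rose by 2.03 and 1.76. *Prl8a9* (1.71 to 2.35 with single arrays left out) was not called in any leave-one-out fit. *Prl2b1* (1.48 to 2.04 with single arrays left out) was not called without day 4 replicate 1, day 4 replicate 2 or day 16 replicate 2. The 7 members with a change under 0.2, such as *Prl3c1* (3.04 and 3.06 at day 4 and 3.12 and 3.14 at day 16), stayed at signals under 4 on all 4 arrays. In *Dnmt1*-/- EBs 13 of the 19 were called higher (median 2.71) and in wt EBs 8 (median 1.08), with 0 lower in either. The shares called higher over all genes were 3.64% in *Dnmt1*-/-, 6.11% in wt and 1.09% in TKO EBs. The TKO change minus the wt change was called positive for 1 and negative for 2, and the TKO change minus the *Dnmt1*-/- change for 0. Prolactin genes share much sequence, so probes may read more than 1 of them. The serine protease inhibitor *Serpinb9e*, of another family expressed in the placenta, rose from 4.91 and 4.18 to 8.67 and 8.90 (change 4.24 ± 0.50 (SE), adjusted p = 0.00134), called in each of the 4 leave-one-out fits, at 3.88 to 4.61.

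The 2 arrays of day 16 ranked these programs in opposite order. All 8 visceral endoderm genes called higher, all 5 lipoprotein genes and all 12 trophoblast genes were higher on replicate 1, with median differences (replicate 2 minus replicate 1) of −0.83, −0.78 and −0.35. Of the 10 called prolactin genes, 9 were higher on replicate 2, with a median difference of 0.90. *Ceacam9* and *Ceacam15*, placental genes of another family, were also higher on replicate 2, *Ceacam9* with 4.99 and 5.28 at day 4 and 6.85 and 8.58 at day 16 and *Ceacam15* with 4.12 and 4.27 at day 4 and 6.29 and 7.17 at day 16. *Ceacam9* (1.71 to 3.44 with single arrays left out) was not called without day 4 replicate 1. These are 2 arrays, the part of single cultures in these gaps was not tested, and over all 218 genes called higher the median difference was −0.14, with 72 higher on replicate 2.

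**Figure D3:**
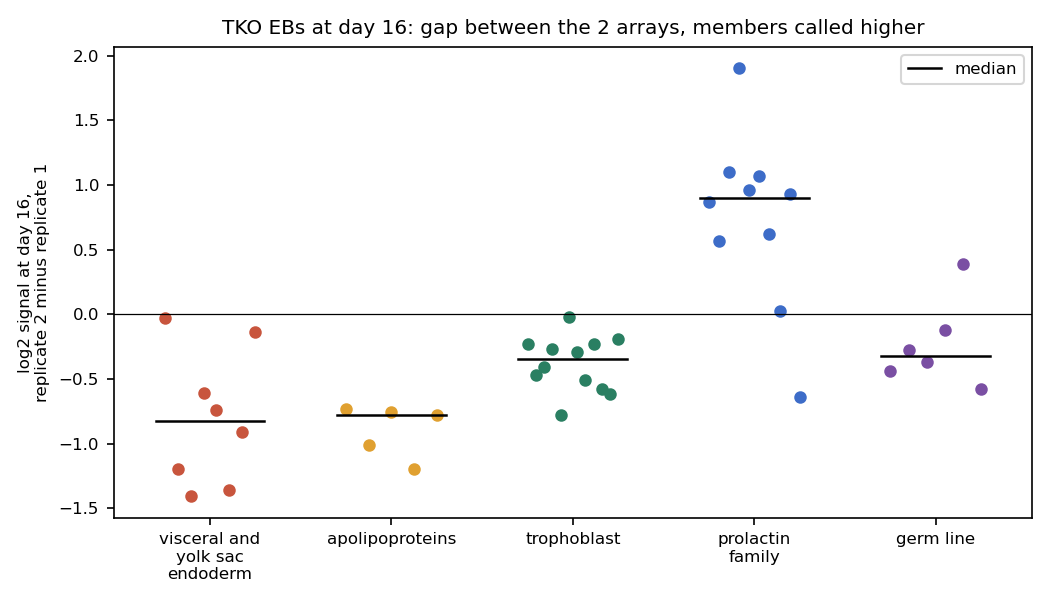
Difference between the 2 arrays of TKO EBs at day 16 (log2 signal, replicate 2 minus replicate 1) for each member called higher of 5 gene groups, with the median as a bar. Endoderm, apolipoprotein and trophoblast points lie below 0, and 9 of 10 prolactin points lie above it.

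Sequence upstream of the start was compared as a description, counting CpG, the site of DNA methylation, and motifs of endoderm, trophoblast and pluripotency factors. RefSeq gave a start for 177 of the 218 higher genes, 104 of the 148 lower genes and 15614 of 19938 genes in all, and the 250 bases before it (GRCm38.p6) were read. The median number of CpG was 7 in the higher genes, 12 in the lower genes and 11 in all genes. It was 4 in 7 of the 8 visceral endoderm genes called higher, 2 in 8 of the 10 prolactin genes, and 17 both in 8 of the 12 trophoblast genes and in the 6 germ line genes. Motifs were searched on both strands. GTTAAT, part of the site of HNF1, was found in 7.34% of higher genes, 4.81% of lower genes and 5.6% of all genes. AGATAA, which GATA factors bind, was found in 10.7%, 4.81% and 8.75%. TGTTTAC, a FOXA site, was in 4.52%, 0.962% and 2.72%, CAAAGT, part of the HNF4 site, in 11.3%, 10.6% and 11.9%, and ATGCAAAT, the octamer bound by OCT4, in 2.82%, 2.88% and 1.61%. Among the 8 prolactin promoters, which are related in sequence, AGATAA was in 5 and GTTAAT in 3. The upstream bases of *Afp* (chr5:90490464-90490713, plus strand), with its GTTAAT in capitals, show an endoderm promoter with 1 CpG, and those of *Prl7d1* (chr13:27716738-27716987, minus strand), with AGATAA in capitals, a placental one with 3:
Afp: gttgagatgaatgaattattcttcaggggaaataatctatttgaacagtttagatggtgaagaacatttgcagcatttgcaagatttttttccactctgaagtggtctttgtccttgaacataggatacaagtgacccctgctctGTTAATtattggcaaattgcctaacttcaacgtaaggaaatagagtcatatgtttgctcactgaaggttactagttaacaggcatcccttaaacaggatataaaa
Prl7d1: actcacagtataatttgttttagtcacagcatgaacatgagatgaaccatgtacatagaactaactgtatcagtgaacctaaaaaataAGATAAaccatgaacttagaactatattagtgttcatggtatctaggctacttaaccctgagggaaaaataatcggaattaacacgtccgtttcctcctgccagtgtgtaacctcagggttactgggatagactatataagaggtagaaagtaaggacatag
The same window of *Dazl* (chr17:50293621-50293870, minus strand) held 20 CpG and that of *Smc1b* (chr15:85131958-85132207, minus strand) 25, each CG in capitals:
Dazl: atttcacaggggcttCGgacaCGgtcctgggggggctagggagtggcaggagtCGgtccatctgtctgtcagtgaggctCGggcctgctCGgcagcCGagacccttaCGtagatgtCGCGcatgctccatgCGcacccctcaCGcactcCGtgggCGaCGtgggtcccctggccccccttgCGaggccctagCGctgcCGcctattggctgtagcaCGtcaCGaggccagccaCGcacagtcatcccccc
Smc1b: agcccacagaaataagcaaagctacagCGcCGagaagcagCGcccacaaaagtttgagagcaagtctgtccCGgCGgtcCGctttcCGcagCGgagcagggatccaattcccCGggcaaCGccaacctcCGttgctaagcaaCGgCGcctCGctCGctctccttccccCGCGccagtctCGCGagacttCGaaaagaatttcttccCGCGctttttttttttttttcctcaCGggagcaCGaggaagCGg

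The germ line list, with 36 members measured, had 6 called higher and 0 lower, a median log2 change of 0.54 and a positive change in 32. *Smc1b*, a cohesin subunit of meiosis, gave 7.28 and 7.27 at day 0, 5.08 and 5.18 at day 4 and 7.84 and 7.72 at day 16 (change 2.65 ± 0.26 (SE), adjusted p = 0.000441). *Dazl*, an RNA-binding protein that germ cells need, gave 8.09 and 7.76 at day 0, 6.81 and 7.32 at day 4 and 9.86 and 9.41 at day 16 (change 2.57 ± 0.31 (SE), adjusted p = 0.00134). Both were called in all 4 leave-one-out fits (*Smc1b* 2.59 to 2.71, *Dazl* 2.32 to 2.82). For both genes the day 16 arrays also lay above the day 0 arrays. *Scml2*, a germ cell Polycomb protein on the X, rose by 1.44 and was not called without day 4 replicate 1, day 4 replicate 2 or day 16 replicate 1, with leave-one-out values of 1.25 to 1.62. *Hormad2* and *Stag3*, which act on meiotic chromosomes, rose by 1.34 and 1.33. *Hormad2* (1.196 to 1.48 with single arrays left out) was not called in any leave-one-out fit. *Stag3* (1.14 to 1.53 with single arrays left out) was not called without day 4 replicate 1, day 4 replicate 2 or day 16 replicate 2. *Tuba3b*, a tubulin of the testis, rose by 1.12. *Tuba3b* (0.83 to 1.41 with single arrays left out) was not called without day 4 replicate 1, day 4 replicate 2 or day 16 replicate 1. *Ddx4*, a defining germ cell helicase, gave 7.82 and 7.27 at day 4 and 7.75 and 7.26 at day 16 and was not called, nor was *Sycp3* (0.46). Over the list, 3, 2, 3 and 4 members were called without day 4 replicate 1, day 4 replicate 2, day 16 replicate 1 and day 16 replicate 2.

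The X chromosome held 18 of its 742 measured genes among those called higher (2.43%) and 17 among those called lower (2.29%), against 1.09% and 0.742% of all genes. *Xist*, the RNA that coats the inactive X, gave 4.58 and 4.50 at day 0, 4.88 and 5.15 at day 4 and 8.22 and 7.36 at day 16 (change 2.78 ± 0.24 (SE), adjusted p = 0.000202), called in each of the 4 leave-one-out fits, at 2.35 to 3.21. *Arhgef6* had the largest rise of the X-linked genes called, 3.54, and was called in each of the 4 leave-one-out fits. It rose by 4.29 in wt EBs and 4.06 in *Dnmt1*-/- EBs and was called in both. *Gm773* and *Usp26*, further X-linked genes noticed after the values were seen, rose by 2.48 and 2.19. Their changes were 0.15 and 0.63 in wt EBs and 0.42 and 1.36 in *Dnmt1*-/- EBs. *Gm773* (2.26 to 2.71 with single arrays left out) and *Usp26* (1.72 to 2.65) were called in each of the 4 leave-one-out fits. Probe sets that carry the symbols Xlr5a, Xlr5b and Xlr5c together rose by 2.31 and 2.42, and 2 probe sets with 6 *Magea* symbols by 1.80 and 2.01. *Map7d3*, a microtubule-binding protein on the X, fell from 7.48 and 7.17 to 5.25 and 5.17 (change −2.12 ± 0.28 (SE), adjusted p = 0.00244), called in each of the 4 leave-one-out fits, at −2.27 to −1.96. *Lpar4*, a receptor for lysophosphatidic acid on the X, fell by 2.26 on the log2 scale and was not called without day 4 replicate 1 or day 16 replicate 2, with leave-one-out values of −2.46 to −2.06. In wt EBs 4.58% of the X-linked genes were called lower, against 2.18% of all genes, and in *Dnmt1*-/- EBs 1.75%, against 0.421%. The shares called higher in wt and *Dnmt1*-/- EBs were 6.74% and 3.37% on the X, against 6.11% and 3.64% of all genes. The share called lower in TKO EBs was as high on chromosome 18, with 11 of 472 genes (2.33%). Chromosome 13, which carries the prolactin cluster, held 17 higher genes among 735 (2.31%).

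Genes of the primitive streak and epiblast were among the named falls. Of 24 streak genes 0 were called higher and 4 lower (median −0.61), and of 20 epiblast genes 0 and 3 (median −0.85). *Mixl1*, a homeobox gene of mesendoderm, gave 5.46 and 5.900 at day 0, 9.09 and 8.84 at day 4 and 5.78 and 6.07 at day 16 (change −3.04 ± 0.59 (SE), adjusted p = 0.0186). *Eomes*, a T-box factor of the streak, gave 4.80 and 5.33 at day 0, 9.49 and 9.18 at day 4 and 6.90 and 6.29 at day 16 (change −2.75 ± 0.57 (SE), adjusted p = 0.0258). Outside both lists, *Fst*, the antagonist of activin, gave 6.74 and 6.68 at day 0, 10.24 and 9.51 at day 4 and 6.80 and 6.75 at day 16 (change −3.10 ± 0.62 (SE), adjusted p = 0.0221). Each of these had both day 16 arrays over 2 log2 units below both day 4 arrays. None was called in a leave-one-out fit, where *Mixl1* was −3.18 to −2.90, *Eomes* −3.05 to −2.44 and *Fst* −3.46 to −2.74. *Wnt8a*, a ligand of the streak outside both lists, fell by 2.30 on the log2 scale and was not called in any of the 4 leave-one-out fits, where it was −2.81 to −1.78. *Axin2*, a target of Wnt signalling, fell by 1.36 and was not called without day 4 replicate 1, day 16 replicate 1 or day 16 replicate 2, with leave-one-out values of −1.59 to −1.13. *Sp8*, another member of the streak list, fell by 1.07 and was not called without day 4 replicate 1, day 16 replicate 1 or day 16 replicate 2, with leave-one-out values of −1.33 to −0.80. *Sall2* and *Sox4*, transcription factors of the epiblast list, changed by −1.22 and −1.002. *Sall2* (−1.38 to −1.07 with single arrays left out) and *Sox4* (−1.22 to −0.78) were not called without day 4 replicate 1, day 4 replicate 2 or day 16 replicate 2. *Fgf5*, the marker of the primed epiblast, went from 9.96 and 9.63 to 8.27 and 8.03, which did not pass the test (−1.65, limma adjusted p = 0.081), and *Otx2* gave 10.04 and 9.83 at day 4 and 9.59 and 9.40 at day 16. *T* is unnamed here. Without day 16 replicate 1, 3 epiblast members, *Dnmt3b* not among them, and no streak member were called lower, without day 4 replicate 2 no epiblast member and 2 streak members were, and without day 4 replicate 1 or day 16 replicate 2 none of either list.

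Fewer falls kept their call in every leave-one-out fit. *Ebf1*, a transcription factor of B cells and mesenchyme, gave 6.03 and 5.84 at day 0, 7.99 and 7.95 at day 4 and 5.72 and 5.82 at day 16 (change −2.21 ± 0.25 (SE), adjusted p = 0.0011), called in each of the 4 leave-one-out fits, at −2.26 to −2.16. *Trh*, the thyrotropin-releasing hormone, was among the strongest signals, with 12.86 and 12.45 at day 4 and 10.55 and 10.65 at day 16 (change −2.06 ± 0.25 (SE), adjusted p = 0.00139), called in each of the 4 leave-one-out fits, at −2.26 to −1.85. *Magel2*, an imprinted gene, fell from 7.996 and 8.16 to 6.22 and 6.32 (change −1.81 ± 0.21 (SE), adjusted p = 0.00122), called in each of the 4 leave-one-out fits, at −1.89 to −1.72. *Nefl*, a neurofilament, and *Ina*, another intermediate filament of neurons, changed by −2.71 and −1.40. *Nefl* (−3.17 to −2.25 with single arrays left out) was not called in any leave-one-out fit. *Ina* (−1.69 to −1.12 with single arrays left out) was not called without day 4 replicate 1, day 4 replicate 2 or day 16 replicate 1. *Fabp7* and *Fzd3*, of 28 neural progenitor genes, were the called members, with changes of −1.78 and −1.06. *Fabp7* (−2.00 to −1.56 with single arrays left out) was not called in any leave-one-out fit. *Fzd3* (−1.27 to −0.85 with single arrays left out) was not called without day 4 replicate 1, day 4 replicate 2 or day 16 replicate 2. *Nes* moved by −1.42 (limma adjusted p = 0.0533), *Hes6* by −0.71 (adjusted p = 0.102) and *Sox1* by −0.09 (adjusted p = 0.88), none called. The largest fall on the array, by 5.13, belonged to a probe set unnamed here.

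Of 32 Wnt genes 0 were called higher and 2 lower (*Wnt8a* and *Axin2*), of 32 BMP, Nodal and TGF-beta genes 0 and 1 (*Fst*), and of 32 FGF and Notch genes 0 and 3. *Spry2*, which restrains FGF signalling, changed by −1.43, *Fgf15*, a ligand, by −1.37, and *Nrarp*, a target of Notch, by −1.10. *Spry2* (−1.63 to −1.22 with single arrays left out) was not called without day 4 replicate 1, day 4 replicate 2 or day 16 replicate 2. *Fgf15* (−1.43 to −1.30 with single arrays left out) was not called in any leave-one-out fit. *Nrarp* (−1.26 to −0.94 with single arrays left out) was not called without day 4 replicate 1 or day 16 replicate 2. The medians of the 3 lists were −0.28, −0.31 and −0.48.

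Of 29 measured pluripotency genes, 2 were called higher and 0 lower, with a median of 0.36. *Pou5f1*, which encodes OCT4, gave 11.64 and 11.45 at day 0 and 11.42 and 11.31 at day 4 and 10.52 and 10.55 at day 16, a change of −0.84 that was not called (limma adjusted p = 0.384). *Nanog* gave 10.74 and 10.63 at day 4 and 10.77 and 10.89 at day 16 (change 0.14, adjusted p = 0.931) and *Sox2* 9.85 and 10.27 at day 4 and 10.59 and 10.55 at day 16 (change 0.51, adjusted p = 0.536). All 3 genes lay above 9.8 on every one of the 4 EB arrays. *Klf4* and *Dppa3*, of the naive state, rose by 1.04 and 1.37. *Klf4* (0.97 to 1.11 with single arrays left out) was not called in any leave-one-out fit. *Dppa3* (1.13 to 1.60 with single arrays left out) was not called without day 4 replicate 1, day 4 replicate 2 or day 16 replicate 1. *Tet1*, an enzyme that oxidises methylated cytosine, gave 8.92 and 9.31 at day 4 and 9.28 and 9.65 at day 16 and was not called (0.36). In the DNA methylation list of 19, *Gadd45b* rose by 1.56 and *Dnmt3b* was the member that fell. *Gadd45b* (1.44 to 1.68 with single arrays left out) was not called without day 4 replicate 1 or day 16 replicate 1.

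Markers of other lineages that EBs can hold changed in few members. Sarcomere genes had 3 of 25 called higher. *Myl4*, the atrial light chain, rose by 1.62, called in each of the 4 leave-one-out fits, at 1.46 to 1.77, and *Tnnt2* by 1.08 and *Tnnc1* by 1.08, both troponin subunits. *Tnnt2* (0.89 to 1.27 with single arrays left out) was not called without day 4 replicate 1, day 4 replicate 2 or day 16 replicate 2. *Tnnc1* (0.75 to 1.41 with single arrays left out) was not called without day 4 replicate 1, day 4 replicate 2 or day 16 replicate 1. *Actc1*, cardiac actin, moved from 7.49 and 7.33 to 8.28 and 9.84 without passing the test (limma adjusted p = 0.0743). Macrophage genes had 2 of 24 higher (8.33%), *Cd68* (1.83) and *Csf1r* (1.27), while *Ptprc*, the pan-leukocyte marker, gave 4.41 and 4.07 at day 4 and 4.19 and 4.68 at day 16. *Cd68* (1.57 to 2.09 with single arrays left out) was not called without day 4 replicate 1. *Csf1r* (1.14 to 1.40 with single arrays left out) was not called in any leave-one-out fit. Endothelial genes had 1 higher and 1 lower of 22 (4.55% each). *Cdh5*, the endothelial cadherin, rose by 1.36 and was not called without day 4 replicate 1, day 16 replicate 1 or day 16 replicate 2, with leave-one-out values of 1.04 to 1.69. *Etv2*, which starts the endothelial program, fell by 1.78 and was not called without day 4 replicate 1 or day 16 replicate 1, with leave-one-out values of −2.12 to −1.45. Erythroid (15 measured), fibroblast (25), Hox (32), interferon (28), p53 (21), cholesterol synthesis (17), Polycomb (24), 2-cell-like (10) and amino acid stress genes (24) had 0 called members in either direction by limma. At an unadjusted p under 0.05, the 196 memberships of these 9 lists held 29 higher (14.8%) and 13 lower (6.63%), among them 8 fibroblast genes higher and 0 lower, beside 1544 (7.74%) and 1970 (9.88%) of all 19938 genes. *Col1a1* gave 6.71 and 6.82 at day 4 and 8.22 and 7.30 at day 16, *Col3a1* 5.99 and 6.06 at day 4 and 6.498 and 6.43 at day 16 and *Dcn* 5.18 and 4.98 at day 4 and 5.42 and 4.74 at day 16.

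Of 24 genes of simple epithelia 4 were called higher, *Krt7*, *Krt19*, *Krt8* and *Lgals3*. *Krt19* rose by 2.48 and *Krt8* by 1.97. *Krt19* (2.40 to 2.55 with single arrays left out), *Krt8* (1.78 to 2.15) and *Lgals3* (1.18 to 1.66) were not called in any leave-one-out fit. Of 22 lysosomal genes 4 were higher, the proteases *Ctsh* (2.26), *Lgmn* (1.93), *Ctsb* (1.25) and *Ctsz* (1.09). *Lgmn* (1.58 to 2.29 with single arrays left out) was called in each of the 4 leave-one-out fits. *Ctsh* (2.00 to 2.52 with single arrays left out) and *Ctsb* (0.99 to 1.51) were not called without day 4 replicate 1 or day 16 replicate 1. *Ctsz* (0.94 to 1.25 with single arrays left out) was not called in any leave-one-out fit. *Abcc2*, an export pump of the apical membrane, rose by 2.08, called in each of the 4 leave-one-out fits, at 1.88 to 2.28. Hypoxia genes had 2 of 26 higher, *Ndrg1* (1.98) and *Vegfa* (1.52), with a median of 0.60. *Ndrg1* (1.66 to 2.29 with single arrays left out) was not called without day 4 replicate 2, day 16 replicate 1 or day 16 replicate 2. *Vegfa* (1.22 to 1.81 with single arrays left out) was not called in any leave-one-out fit. Cell cycle genes (31) had 1 called member, the imprinted inhibitor *Cdkn1c* (1.94), and *Mki67* gave 9.41 and 9.29 at day 4 and 9.38 and 9.20 at day 16. *Cdkn1c* (1.81 to 2.08 with single arrays left out) was not called without day 4 replicate 2 or day 16 replicate 2.

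Fatty acid and retinol genes had 3 of 26 members higher and 1 lower. Besides *Rbp4*, the fatty acid carrier *Fabp3* rose by 1.78 and the nuclear receptor *Pparg* by 1.55, and *Slc27a2*, an acyl-CoA synthetase, changed by −2.02. *Fabp3* (1.30 to 2.25 with single arrays left out), *Pparg* (1.42 to 1.68) and *Slc27a2* (−2.14 to −1.90) were not called in any leave-one-out fit. Parietal endoderm and basement membrane genes had 1 of 18 higher, *Nid1* (1.35), which links laminin and collagen, and 2 lower, *Fst* and *Sema6a* (−1.84). *Nid1* (1.04 to 1.66 with single arrays left out) was not called without day 4 replicate 1, day 16 replicate 1 or day 16 replicate 2. *Sema6a* (−1.98 to −1.70 with single arrays left out) was not called without day 4 replicate 1. Of 26 imprinted genes, *Cdkn1c*, *Ascl2* and *Sgce* (1.01) were higher and *Magel2* and *Nnat* (−1.39) lower. *Sgce* (0.80 to 1.22 with single arrays left out) and *Nnat* (−1.68 to −1.09) were not called in any leave-one-out fit. Neural crest (1 of 19, *Gata3*), lateral mesoderm (1 of 22, *Hand1*) and contractile genes (2 of 20, *Krt8* and *Anxa1*) added the rest of the list members called higher, with *Ephx1* (1.07) beside *Abcc2* among 23 bile acid and xenobiotic genes and *Cyp2j6* (−1.12) lower. *Anxa1* (0.81 to 1.74 with single arrays left out) was not called without day 4 replicate 1, day 4 replicate 2 or day 16 replicate 1. *Ephx1* (0.64 to 1.51 with single arrays left out) was not called without day 4 replicate 1, day 16 replicate 1 or day 16 replicate 2. *Cyp2j6* (−1.56 to −0.69 with single arrays left out) was not called without day 4 replicate 1, day 4 replicate 2 or day 16 replicate 2.

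Among large rises outside the lists were the kinase *Nrk* (2.98), on the X, and the galectins *Lgals2* (2.82) and *Lgals9* (2.65). *Nrk* (2.87 to 3.10 with single arrays left out), *Lgals2* (2.30 to 3.34) and *Lgals9* (2.52 to 2.78) were called in each of the 4 leave-one-out fits. *Alox15*, a lipoxygenase, was among the large falls, with 8.43 and 8.29 at day 4 and 5.40 and 6.09 at day 16 (change −2.62). *Alox15* (−2.96 to −2.27 with single arrays left out) was not called in any leave-one-out fit. *Sfmbt2*, an imprinted Polycomb gene that hosts the *Mir467* family, rose by 1.88. *Sfmbt2* (1.62 to 2.14 with single arrays left out) was not called without day 4 replicate 1 or day 16 replicate 2.

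MicroRNA genes, 300 of them with a probe set of their own, had 0 called higher and 1 lower by limma. The probes read the gene or precursor, not the mature arm. *Mir381*, of the imprinted cluster on chromosome 12, gave 6.74 and 6.93 at day 4 and 5.69 and 4.96 at day 16 (change −1.51 ± 0.35 (SE), adjusted p = 0.0421), and was not called without day 4 replicate 1, day 4 replicate 2 or day 16 replicate 2, with leave-one-out values of −1.87 to −1.15. Larger falls in mean signal, of genes of the *Mir302* and *Mir367* cluster typical of the epiblast and ESCs, were noticed after the values were seen. *Mir302b* gave 8.10 and 6.38 at day 4 and 6.01 and 4.46 at day 16 (change −2.00, adjusted p = 0.374), *Mir302d* 8.74 and 6.83 at day 4 and 6.24 and 5.30 at day 16 (change −2.02) and *Mir367* 6.84 and 4.52 at day 4 and 4.03 and 3.09 at day 16 (change −2.12). In all 3 the replicates of each day were 0.9 log2 units or more apart, and none was called. RefSeq (GRCm38.p6) gives these mature RNAs, on the plus strand at chr3:127545275-127545297, chr3:127545665-127545687, chr3:127545779-127545800 and, for the arms of *Mir381*, chr12:109726829-109726851 and chr12:109726870-109726891, with the seed (bases 2 to 8) in capitals. miR-302b-3p and miR-302d-3p share the seed AAGUGCU:
miR-302b-3p: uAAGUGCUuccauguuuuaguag
miR-302d-3p: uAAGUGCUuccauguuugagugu
miR-367-3p: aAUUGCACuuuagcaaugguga
miR-381-5p: aGCGAGGUugcccuuuguauauu
miR-381-3p: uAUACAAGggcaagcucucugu

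More genes were called in wt EBs over the same days, with 1218 genes (6.11%) called higher and 434 (2.18%) lower, and in *Dnmt1*-/- EBs there were 725 (3.64%) higher and 84 (0.421%) lower. The means of these comparisons come from no array of TKO EBs, but the variance behind every call comes from the 1 fit over 18 arrays. Fitted on only the arrays compared, wt EBs had 1230 probe sets called in place of 2083 and *Dnmt1*-/- EBs 384 in place of 959. Of the 218 genes higher in TKO EBs, 134 (61.5%, and 11% of the wt genes) were also called higher in wt EBs and 164 (75.2%, and 22.6% of the *Dnmt1*-/- genes) in *Dnmt1*-/- EBs, and 41 were called higher in neither. Of the 148 lower genes, 30 (20.3%, and 6.91% of the wt genes) were also called lower in wt EBs and 21 (14.2%, and 25% of the *Dnmt1*-/- genes) in *Dnmt1*-/- EBs, while 110 were called lower in neither. The 1218 genes higher in wt EBs had a median rise of 1.51 there and a median change of 0.30 in TKO EBs, and the 725 genes higher in *Dnmt1*-/- EBs medians of 1.55 and 0.64. A missing call in 1 genotype does not by itself show a difference.

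**Figure D4:**
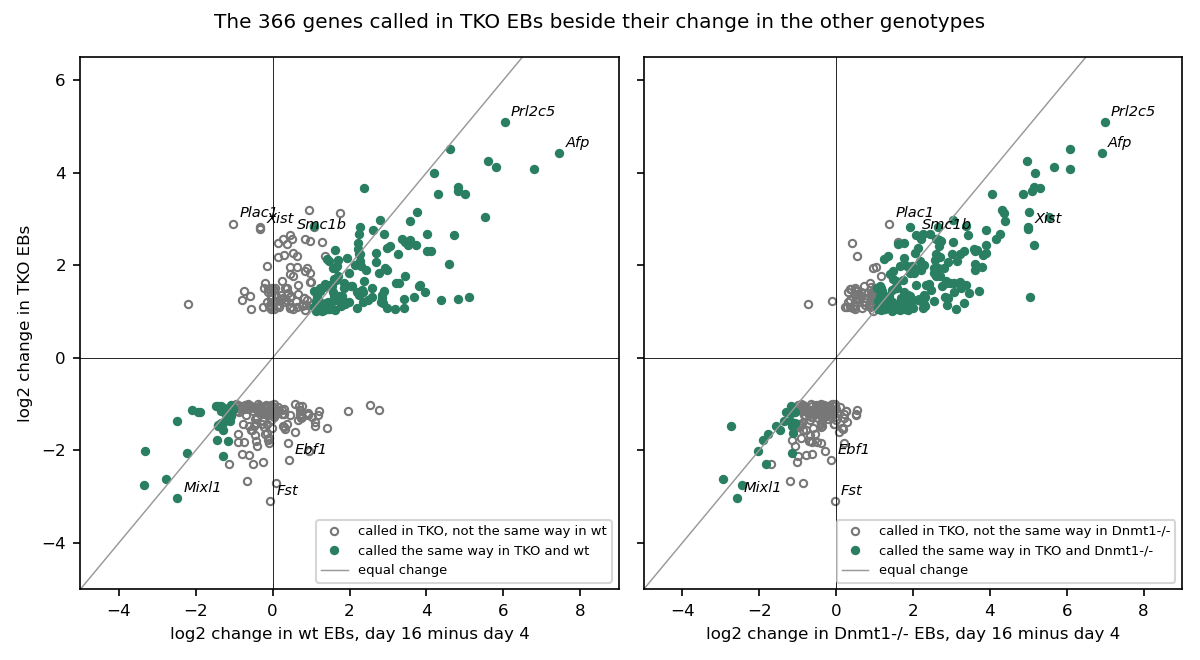
Log2 change from day 4 to day 16 in TKO EBs (vertical axis) against that in wt EBs (left) and *Dnmt1*-/- EBs (right) for the genes called in TKO EBs, with those called the same way in the other genotype as filled points and a line of equal change. Of 218 higher genes, 134 are filled at the left and 164 at the right, and of 148 lower genes 30 and 21.

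The difference itself was tested as the TKO change minus the wt change. Genes called with a negative difference numbered 684 (3.43%) and those called with a positive one 164 (0.823%). Here and below, counts of differences are of called genes unless an unadjusted p is given. Smaller and larger changes are read with the sign, so a lesser fall in TKO EBs counts as larger. *Alb* gave 3.82 and 4.03 at day 4 and 11.33 and 12.19 at day 16 in wt EBs, beside the low TKO signals above (difference −7.78 ± 0.50 (SE), adjusted p = 9.44e-06). *Dcn*, decorin of connective tissue, gave 4.49 and 4.92 at day 4 and 11.54 and 11.81 at day 16 in wt EBs (difference −6.97 ± 0.42 (SE), adjusted p = 6.85e-06) and *Lum*, lumican, 3.03 and 2.89 at day 4 and 9.93 and 10.13 at day 16 (difference −6.41 ± 0.35 (SE), adjusted p = 2.69e-06). Among lists, 16 of 29 plasma protein genes, 14 of 25 fibroblast genes, 13 of 24 macrophage genes and 10 of 23 bile acid and xenobiotic genes had a smaller change than in wt EBs, and 0 in each a larger one. Median changes in wt EBs were 2.90, 2.86, 2.17 and 0.72 for these 4 lists, against 0.35, 0.26, 0.11 and 0.15 in TKO EBs. *Afp* and *Trf* rose in TKO EBs but by less than in wt EBs (difference −3.04 ± 0.49 (SE), adjusted p = 0.00461 for *Afp* and −2.74 ± 0.27 (SE), adjusted p = 0.000154 for *Trf*). Visceral endoderm genes as a list had 3 of 23 with a smaller change (medians 1.39 in wt and 1.14 in TKO EBs).

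Positive differences of the TKO from the wt change were found in several lists, against a share of 0.823% over all genes. They numbered 7 of 32 BMP, Nodal and TGF-beta pathway genes, 4 of 22 lateral and cardiac mesoderm genes, 5 of 29 pluripotency genes, 4 of 23 trophoblast genes and 4 of 36 germ line genes, and 4, 5, 1, 1 and 0 genes of these lists had a negative difference. In the same order, 0, 1, 2, 12 and 6 genes were called higher in TKO EBs, and 7, 6, 5, 3 and 0 were called lower in wt EBs. *Plac1* gave 8.26 and 7.92 at day 4 and 6.86 and 7.28 at day 16 in wt EBs, a change of −1.02, and the difference was 3.92 ± 0.67 (SE), adjusted p = 0.00641. *Hand1* fell in wt EBs, from 9.53 and 9.24 to 7.48 and 6.90, but rose in TKO EBs, from 6.39 and 6.04 to 7.53 and 7.24 (difference 3.35 ± 0.37 (SE), adjusted p = 0.000284). The day 16 signals of *Hand1* in the 2 genotypes overlapped, and the day 4 signals did not. *Smc1b* gave 3.88 and 4.16 at day 4 and 4.28 and 4.68 at day 16 in wt EBs (difference 2.19 ± 0.36 (SE), adjusted p = 0.0054). *Xist* gave 4.22 and 4.36 at day 4 and 3.89 and 4.05 at day 16 in wt EBs (difference 3.10 ± 0.33 (SE), adjusted p = 0.000248), and in *Dnmt1*-/- EBs its change was 4.99. *Gm1698*, a gene of chromosome 8, rose by 2.83 in TKO EBs (difference 3.17 ± 0.29 (SE), adjusted p = 8.81e-05) and was called in each of the 4 leave-one-out fits, at 2.77 to 2.88. Germ line genes were called higher in *Dnmt1*-/- EBs too, 9 of 36 with a median log2 change of 0.73, beside 6 of 36 and 0.54 in TKO EBs. Over all genes 3.64% were called higher in *Dnmt1*-/- EBs and 1.09% in TKO EBs. By limma 0 germ line genes were called in wt EBs, where 4 were higher and 3 lower at an unadjusted p under 0.05. The test of the difference between TKO and *Dnmt1*-/- EBs called 0, with 4 of the 36 smaller and 0 larger in TKO EBs at an unadjusted p under 0.05.

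Against *Dnmt1*-/- EBs, 52 genes (0.261%) had a smaller change in TKO EBs and 2 (0.01%) a larger one. Tested with 1 probe set per gene, which leaves 19938 to adjust over, these became 155 and 18. The smaller changes were led by *Dcn* (difference −4.90 ± 0.42 (SE), adjusted p = 0.0011), *Alb* (difference −4.90 ± 0.50 (SE), adjusted p = 0.00239) and *Igfbp1*, which binds insulin-like growth factors (difference −3.73 ± 0.37 (SE), adjusted p = 0.00239), of which *Igfbp1* rose by 1.31 in TKO EBs, a call lost in each of the 4 leave-one-out fits (1.27 to 1.36), and by 5.04 in *Dnmt1*-/- EBs. The 2 larger changes were those of *Cfc1*, a coreceptor of Nodal (difference 2.42 ± 0.32 (SE), adjusted p = 0.0124), and *1700028P14Rik* (difference 1.30 ± 0.22 (SE), adjusted p = 0.0407). The call of *Cfc1* was lost without TKO day 4 replicate 2 (2.33) or *Dnmt1*-/- day 4 replicate 2 (2.38), and that of *1700028P14Rik* without any of the 8 EB arrays compared (1.14 to 1.45), nor was it called after median subtraction (1.27) or quantile normalization (1.25). In TKO EBs *Cfc1* gave 5.64 and 5.46 at day 4 and 6.43 and 6.005 at day 16 and was not called. Of the lists, plasma proteins had 6 of 29 members with a smaller change than in *Dnmt1*-/- EBs, imprinted genes 4 of 26 and fibroblast genes 3 of 25.

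**Figure D5:**
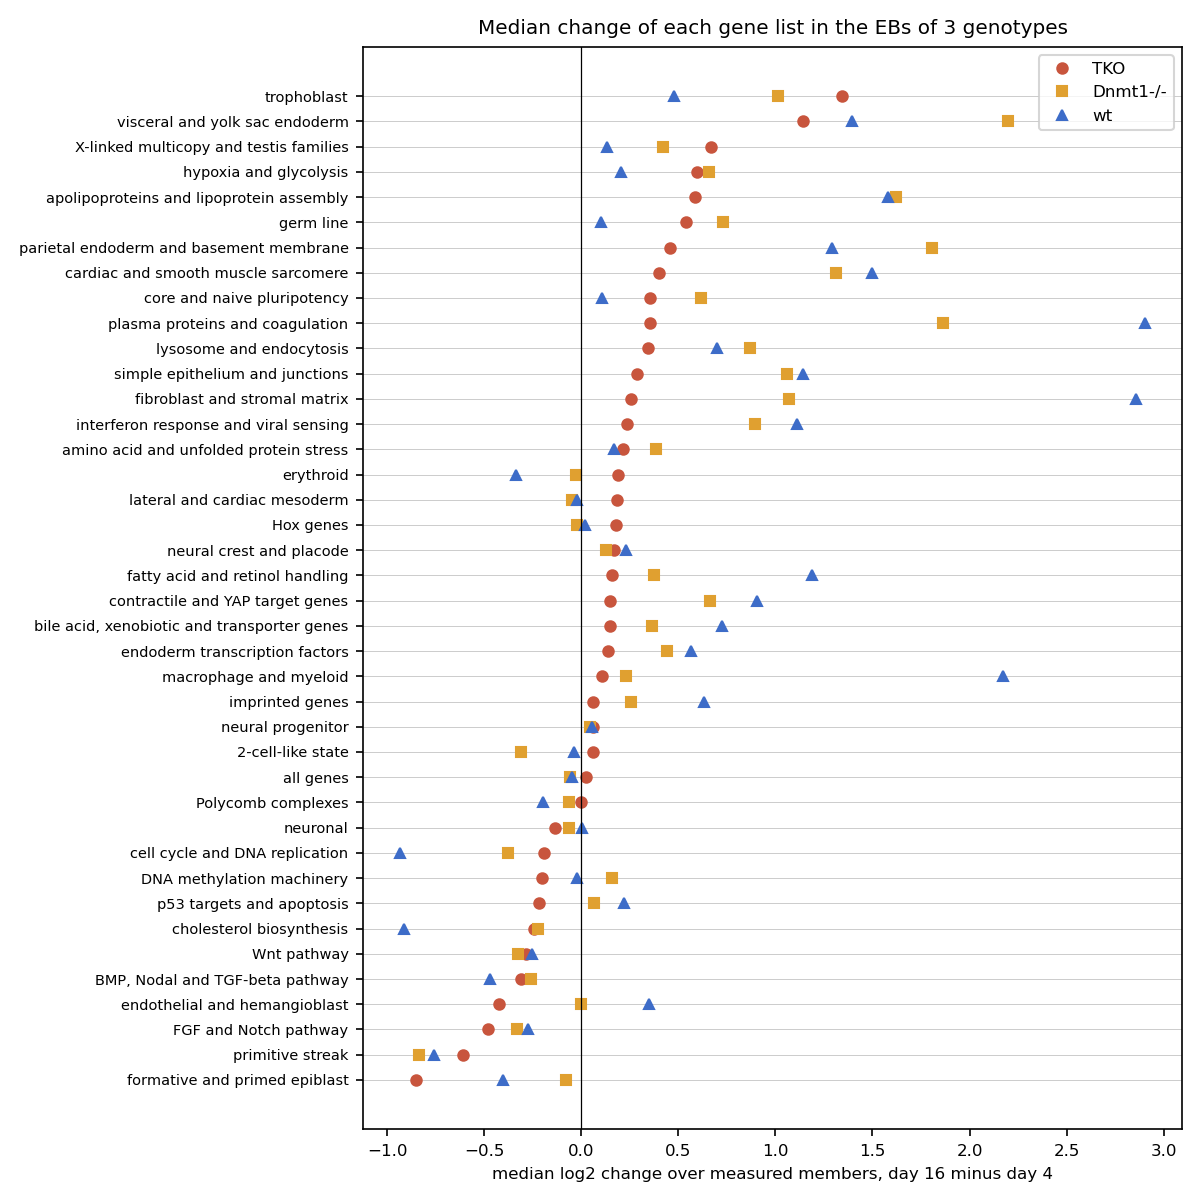
Median log2 change from day 4 to day 16 over the measured members of each gene list in TKO (circles), *Dnmt1*-/- (squares) and wt EBs (triangles), ordered by the TKO median, with all genes for reference. The trophoblast median is higher in TKO EBs (1.34) than in *Dnmt1*-/- (1.02) and wt EBs (0.48). The test of the difference between the TKO and *Dnmt1*-/- changes called 0 trophoblast genes. The medians of plasma proteins (0.35) and fibroblast genes (0.26) in TKO EBs lie far below the wt medians (2.90 and 2.86).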

How the data were processed

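Expression was measured on Affymetrix Mouse Gene 1.0 ST arrays. The authors deposited log2 signals for 35512 probe sets, the output of RMA, which removes background, normalizes arrays against each other and combines the probes of a set. No source used here gives its version or a filter. These values entered limma 3.58.1 (R 4.3.3) unchanged as 9 group means over 18 arrays, with 9 residual and 3.32 prior degrees of freedom and Benjamini-Hochberg adjustment over all probe sets in each comparison. Every adjusted p is from limma. Array medians ran from 5.77 to 5.9, and the number of arrays limits the precision (median SE 0.203, or 0.287 for a difference of changes). In data simulated for TKO EBs at day 16 against day 4 over 35512 probe sets, 86 of 100 effects of 1.5 and 96 of 100 of 2.5 were called. So were 11 of 35312 probe sets with no effect. Each simulated probe set had the same spread on all arrays. The real TKO EB arrays lay further apart at day 16 than at day 4, so these shares may not hold for them.

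Symbols came from the platform annotation (21789 probe sets with 1, 1621 with several, 12102 with none). The 39 lists (966 genes, 867 measured), the members and the alternatives were chosen with earlier results of these data known. The rule for named genes took those in the study's text, the 15 largest rises and 15 largest falls whose arrays did not overlap, up to 4 called and 3 strong uncalled members of each list, and the 8 most positive and 8 most negative differences from the wt change and 5 each way from the Dnmt1-/- change. Each gene is read from its probe set of highest mean signal. Further uncalled list members and the prolactin, *Serpinb9*, *Ceacam*, X-linked and microRNA genes were chosen after their values were seen.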

Additional observations from a re-analysis of the deposited data

Results flagged for a closer look

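The changes from day 4 to day 16 differed between TKO and wt EBs for 1028 probe sets and between TKO and *Dnmt1*-/- EBs for 58, by limma's test of the difference. Against wt EBs, the most negative log2 differences were those of *Alb* (−7.78), *Dcn* (−6.97), *Cym* (−6.51), *Lum* (−6.41), *Ahsg* (−6.13), *Ugt2b34* (−5.80), *Plagl1* (−5.69) and *Sema3c* (−5.17). The most positive were those of *Plac1* (3.92), *Phlda2* (3.64), *Hand1* (3.35), *Cfc1* (3.29), *Msx2* (3.25), *Gm1698* (3.17), *Xist* (3.10) and *Greb1l* (2.96). *Smc1b* (2.19) and *Scml2* (2.18) also had positive differences, and *Afp* (−3.04) and *Trf* (−2.74) negative ones. *Phlda2*, *Msx2* and *Greb1l* were not called in TKO EBs themselves, with log2 changes of 0.86, 0.25 and 0.41 beside −2.78, −3.00 and −2.55 in wt EBs. *Cym*, *Plagl1* and *Sema3c* changed by 0.06, −0.53 and −0.31 in TKO EBs and by 6.57, 5.16 and 4.86 in wt EBs. Against *Dnmt1*-/- EBs, the differences were −4.90 for *Dcn*, −4.90 for *Alb*, −3.73 for *Igfbp1*, −3.56 for *Ugt2b34*, −3.55 for *Gkn2*, 2.42 for *Cfc1* and 1.30 for *1700028P14Rik*. The call of *Gkn2* was lost in 7 of the 8 fits that leave out 1 EB array (−3.68 to −3.06), all but that without *Dnmt1*-/- day 16 replicate 2.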

How the results depend on the processing

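The number of probe sets called in TKO EBs (501) lay between 477 and 523 after subtracting array medians, further quantile normalization, trended and robust variance, array weights, a filter on low signal, or counting identical probe sets once (491, chosen after seeing the data). Tested with 1 probe set per gene, 468 genes were called (273 higher, 195 lower), where the main fit called 218 genes higher and 148 lower. Fitting only the arrays compared left 165 calls (123 higher, 42 lower), with 1230 in wt EBs, 384 in *Dnmt1*-/- EBs, 475 for the difference from wt (81 higher, 394 lower) and, by limma, 0 for the difference from *Dnmt1*-/- EBs, where 2460 probe sets had an unadjusted p under 0.05. That difference gave 173 calls (18 higher, 155 lower) with 1 probe set per gene. Leaving out single arrays gave 148 to 411 calls in TKO EBs (107 to 181 higher, 41 to 230 lower), the lowest of each without day 4 replicate 1 and the highest without day 16 replicate 1. It gave 1566 to 2464 in wt EBs, where the lower calls (685) ran from 321 without wt day 16 replicate 2 to 1054 without wt day 16 replicate 1. It gave 565 to 929 in *Dnmt1*-/- EBs, 612 to 1085 for the difference from wt (103 to 324 higher, 502 to 764 lower) and 11 to 85 for that from *Dnmt1*-/- EBs. With the replicate block, TKO EBs had 674 calls (332 lower), the difference from wt 1388 (354 higher) and that from *Dnmt1*-/- EBs 107. The labels do not say that a replicate number marks a shared experiment. Replicate differences correlated at 0.0409 to 0.501 over 36 pairs of groups, and at 0.0804 between TKO EBs of day 4 and day 16. All were positive but not all above 0.1, so the numbers were not taken to pair the samples. Of 92 named genes called in TKO EBs, 28 to 43 kept their call when 1 array was left out, 52 with only the arrays compared and 83 to 92 under the other alternatives (89 of 89 under the filter), and 0 reversed. Of 429 values of 27 named differences under the alternatives, 401 kept their call and 28 lost it, with 0 reversed. The cause of these shifts was not tested.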
